A study of Mus musculus with 12 samples.

Results

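The genes described here code for 38 enzymes and membrane proteins of the lysosome, its proton pump and the transcription factors TFEB and TFE3, out of 54232 genes in the deposited count table. They were chosen by name, as the Ensembl genes whose GENCODE M21 symbols are on a list of proteases, glycosidases, sulfatases, lipid hydrolases and luminal lipid proteins, membrane proteins, pump subunits and TFEB factors. Earlier results of these data were known when the list was made. All 38 had enough reads to be tested. Whole liver RNA came from male C57BL6/J mice, labelled 8-week in age, of an intragastric model of alcohol-associated steatohepatitis (ASH). The 5 pair-fed (PF) mice received an isocaloric high-fat liquid diet for 8 weeks. The 7 alcohol-fed (AF) mice received a high-fat liquid diet with alcohol, labelled as 27 g/kg/day, for the same time. They were also given a weekly alcohol binge of 5 g/kg. No genetic change is labelled in either group, and both groups share the high-fat liquid diet, so that PF describes fatty feeding without alcohol and not an untreated liver. The study's methods add that the ethanol dose was raised gradually to 27 g/kg/day and that the binges began later than the infusion. They also state that solid Western diet was offered alongside the infused diet. Each library came from a separate mouse, and the differences therefore stand against the spread between mice. Between 24129900 and 30578639 reads per library were counted on genes, and levels are given as counts scaled to a common library size (CPM) after TMM scaling by edgeR.

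Lysosomes are acidic organelles in which proteins, glycans and lipids delivered by endocytosis, phagocytosis and autophagy are broken down. Soluble hydrolases work in the lumen, and most of them carry a mannose 6-phosphate tag that directs them there. A heavily glycosylated membrane holds transporters and channels, and the vacuolar ATPase pumps protons inward to keep the pH at which the hydrolases work. Hepatocytes use lysosomes for autophagy and lipid turnover, and Kupffer cells, the resident macrophages of the liver, are particularly rich in them. Many lysosomal genes carry a short promoter sequence, the CLEAR element, to which the transcription factors TFEB and TFE3 bind.

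The promoters of the lysosomal genes are shown first because this sequence links many of them. RefSeq windows on GRCm38.p6, from 250 bases before to 50 bases after each transcription start, were held for 34 of the 38 genes. Ctsb, Ctsh, Npc1 and Atp6v1h were without a window. The core of the CLEAR element, CACGTG, was present in a window of 14 of the 34 genes (41.2%), compared with 2187 of all 27025 genes with windows (8.09%). The 8 letters TCACGTGA, which contain that core, were present in 7 of the 34 (20.6%) and in 304 of all genes (1.12%). The full element, with a G before and a C after these 8 letters, was present in 1 of the 34 (2.94%), Cln3, and in 100 of all genes (0.37%). Each of these motifs reads the same on both strands. The 30 bases around every TCACGTGA match in these genes are printed 5′ to 3′ on the strand of the gene, with the 8 letters in capitals.
Ctsd (chr7:142387908-142387937, minus strand): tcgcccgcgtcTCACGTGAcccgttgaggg
Cln3 (chr7:126583340-126583369, minus strand): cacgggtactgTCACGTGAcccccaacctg
Gla, first match (chrX:134601215-134601244, minus strand): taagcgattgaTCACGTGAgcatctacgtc
Gla, other match (chrX:134601182-134601211, minus strand): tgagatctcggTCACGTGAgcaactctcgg
Ctsa, first match (chr2:164833749-164833778, plus strand): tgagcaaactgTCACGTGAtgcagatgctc
Ctsa, other match (chr2:164833766-164833795, plus strand): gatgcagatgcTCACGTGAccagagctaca
Mcoln1 (chr8:3500462-3500491, plus strand): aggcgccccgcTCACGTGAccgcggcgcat
Atp6v0d1 (chr8:105566050-105566079, minus strand): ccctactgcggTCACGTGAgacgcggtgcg
Atp6v1a (chr16:44139373-44139402, minus strand): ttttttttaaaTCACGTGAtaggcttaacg
Counted from the transcription start, the first capital letter lies at -99 in Ctsd, -122 in Cln3, -228 and -195 in Gla, -13 and 5 in Ctsa, -46 in Mcoln1, -4 in Atp6v0d1 and -132 in Atp6v1a. These are matches of letters in a window, and binding was not measured.

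Many mRNAs of soluble lysosomal proteins were higher in the livers of alcohol-fed mice, led by Lgmn, Ctsd, Psap and Hexa, while 3 of the 9 membrane and pump genes passed, in both directions. Of the 38 genes, 17 were higher in AF than in PF (44.7%) and 2 were lower (5.26%) at an adjusted p under 0.05 in edgeR's quasi-likelihood test, and 19 did not pass. Over all 14168 genes tested, 22.0% were higher and 17.8% lower, and 39.8% differed in either direction. The 38 genes and the further lists below were chosen with earlier results of these data known. Their excess over all genes is therefore not that of an independent list. All genes tested were also not matched to the 38 genes in spread. The median coefficient of variation was lower for the 38 genes in PF and in AF livers, as given below. The 27 luminal proteins (enzymes, prosaposin, progranulin and NPC2) included 15 that were higher and 0 that were lower, with a median log2 fold change of 0.48. The 9 membrane and pump genes included 1 that was higher and 2 that were lower, with a median of -0.06. That count of lower genes was 0 when AF 3 or AF 4 was left out, and 4 with the replicate number as a block. The 3 of 9 that passed are near the 39.8% of all genes, and the difference between these classes was not itself tested. It was not seen in the wider list of lysosomal genes described below. There, 9 of 21 further membrane proteins (42.9%), 5 of 17 further pump subunits (29.4%) and 12 of 32 further hydrolases (37.5%) were higher. The median over the 38 genes was 0.30, and over all genes tested it was 0.04. In bulk tissue, more cells of a type and more RNA per cell cannot be told apart.

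For 12 of the 38 genes every AF liver lay above every PF liver, a pattern seen in 8.20% of all genes tested. These were Ctsb, Ctsd, Ctsl, Lgmn, Glb1, Gusb, Hexa, Idua, Man2b1, Ppt1, Psap and Grn, all of them luminal. None of the 38 had every AF liver below every PF liver, compared with 9.49% of all genes. Reads of the 38 genes made up 0.619 to 0.644% of all counted reads in PF livers and 0.897 to 1.34% in AF livers. This share involves no scaling factor, and the groups did not overlap in it. It lies on the scale of library totals, where the median log2 fold change of all genes was 0.40. After TMM scaling, the 38 genes summed to 6870 to 7560 CPM in PF (mean 7270) and 9590 to 10800 CPM in AF (mean 10000).

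**Figure D1:**
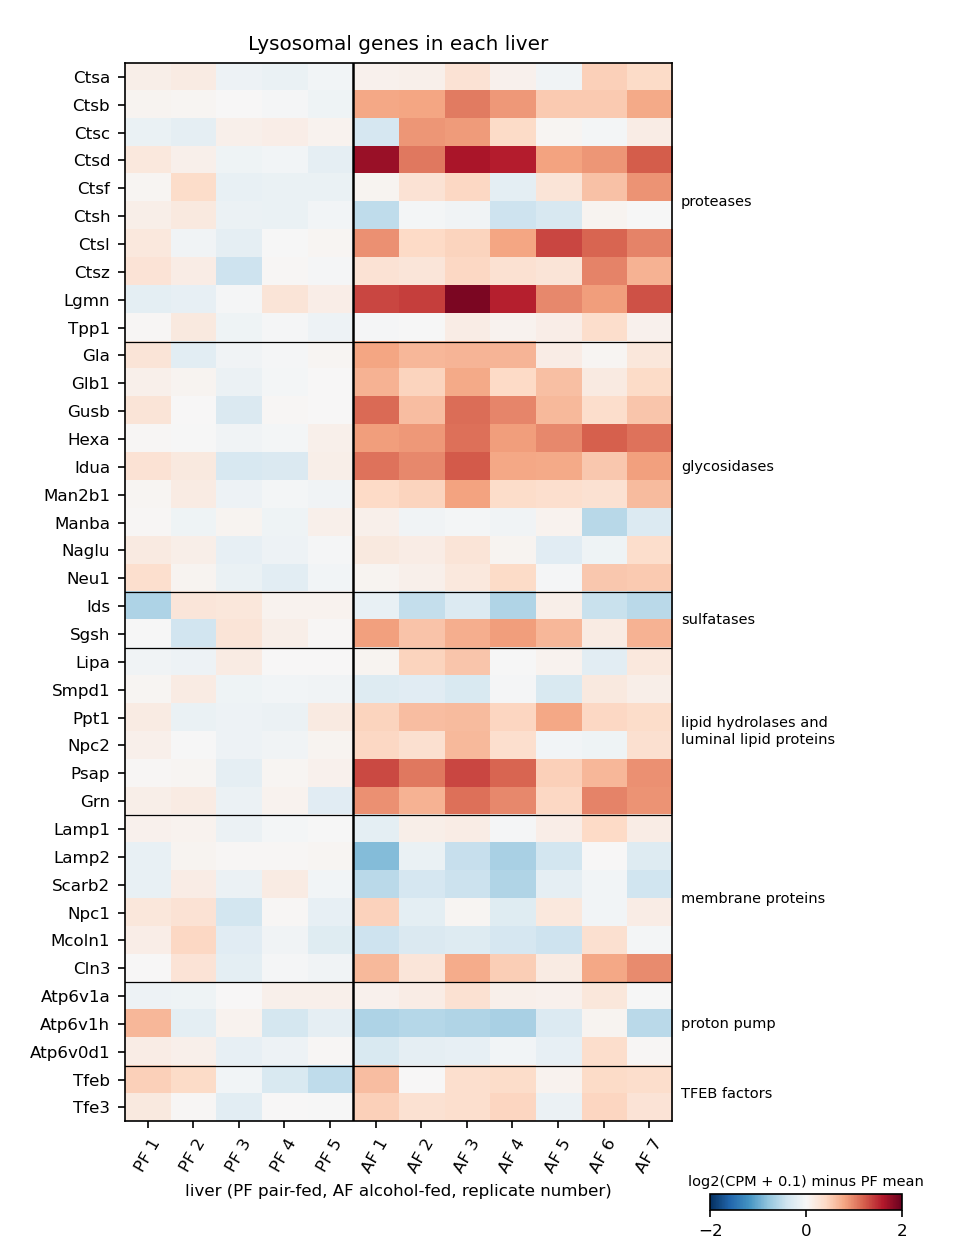
Level of each of the 38 lysosomal genes (rows, grouped by class) in each of 5 PF and 7 AF livers (columns), as log2(CPM + 0.1) minus the PF mean of the gene, from blue (below) to red (above). Red blocks fill the AF columns for Ctsb, Ctsd, Ctsl, Lgmn, Hexa, Gusb, Idua, Psap and Grn, while Lamp2, Scarb2 and Atp6v1h are blue in most AF columns.

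The choice of scaling bears on these counts. TMM factors were 0.832 to 0.901 in PF and 0.88 to 1.36 in AF libraries. When library totals were used without these factors, the median log2 fold change of all genes moved from 0.04 to 0.40, and 6458 genes were higher and 938 lower in place of 3116 and 2519. On that scale 30 of the 38 genes were higher and 0 lower, with a median of 0.68, which has to be read against the shifted 0.40. The luminal median was then 0.85 and the membrane and pump median 0.28, so that the first was above and the second below the median of all genes, as with TMM.

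**Figure D2:**
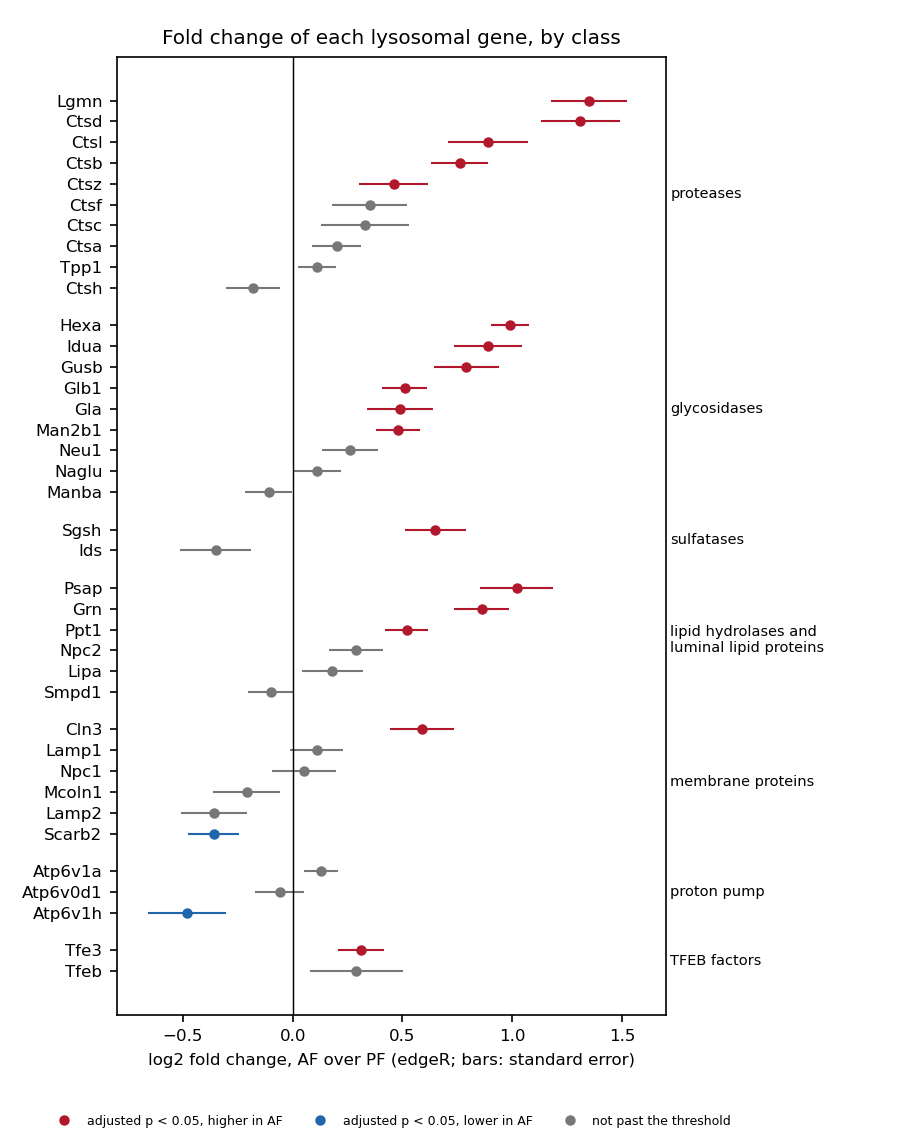
Log2 fold change of AF over PF (x axis) from edgeR for each of the 38 genes (y axis), grouped by class, with bars of 1 standard error on each side and colour by call at an adjusted p of 0.05. Values run from -0.48 for Atp6v1h to 1.35 for Lgmn, and the red points (higher) lie mainly among proteases, glycosidases and lipid proteins.

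The proteases held the largest changes. Of 10 proteases, 5 were higher in AF and 0 lower, with a median log2 fold change of 0.41. Lgmn (chr12:102394084-102439813, minus strand, GRCm38) codes for legumain, an asparaginyl endopeptidase that also processes cathepsins. Its level was 93.9, 96.9, 106, 129 and 119 CPM in the PF livers, and in the AF livers it ran from 193 to 400 CPM with a median of 274. The AF livers all lay above the PF livers, at a 2.55-fold higher fitted level (log2 fold change 1.35 ± 0.174 SE, adjusted p = 1.28e-04). Ctsd (chr7:142375911-142388038, minus strand) codes for cathepsin D, the main aspartic protease of the lysosome. It stood at 214, 199, 174, 177 and 164 CPM in PF, and at 322 to 612 CPM with a median of 429 in AF. The groups again did not overlap, and the increase was 2.47-fold (log2 fold change 1.31 ± 0.181 SE, adjusted p = 2.14e-04). Ctsd overlaps Gm49369 on the same strand, a gene with a mean of 1.43 CPM in PF and 2.92 CPM in AF, and how reads in the shared stretch were counted is not known.

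Cathepsins B and L, cysteine proteases of the papain family, had the highest levels per exon length among the proteases in both groups. Ctsb was at 1020, 1010, 980, 968 and 927 CPM in PF and at 1410 to 2010 CPM (median 1680) in AF. The PF values were close together, and the lowest AF liver was still well above them (log2 fold change 0.76 ± 0.131 SE, adjusted p = 8.8e-04). Ctsb overlaps Fdft1, the squalene synthase gene, on the opposite strand. Fdft1 moved the other way, from a mean of 213 to 39.9 CPM (log2 fold change -2.41, adjusted p = 1.7e-05). Since the strand setting of the counting is not stated, reads in the shared stretch cannot be assigned with certainty to either gene. Ctsl was at 1080, 888, 818, 928 and 958 CPM in PF and at 1230 to 2340 CPM (median 1760) in AF. All AF livers were above the PF livers, but they were spread over a wide range (log2 fold change 0.89 ± 0.182 SE, adjusted p = 0.00242).

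Ctsz, a carboxypeptidase of the same family, passed the threshold more narrowly. PF livers held 192, 177, 119, 162 and 157 CPM and AF livers 188 to 317 CPM (median 196). The groups overlapped, with 5 of 7 AF livers above the highest PF liver (log2 fold change 0.46 ± 0.158 SE, adjusted p = 0.0334). This call did not hold when PF 2, PF 3, PF 4, PF 5 or AF 7 was left out, with adjusted p between 0.0501 and 0.0908, nor with the replicate block (log2 fold change 0.30, adjusted p = 0.104) or the GC and length offset (adjusted p = 0.0511). In the exact two-sided permutation test of the mean log2(CPM + 0.1) over all 792 splits of the 12 livers, p was 0.00884 for Ctsz and 0.00126, the smallest that 792 splits can give for these groups, for Lgmn, Ctsd and Ctsb.

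The other 5 proteases did not pass. Ctsc, the dipeptidyl peptidase that activates granule serine proteases, averaged 247 ± 23.8 CPM in the 5 PF livers and 311 ± 101 CPM in the 7 AF livers (mean ± SD, as for the values that follow). Its AF values were the most scattered of the 38 genes, from 195 CPM in AF 1 to 452 CPM in AF 2 (adjusted p = 0.198). Ctsf, a further papain-like protease, stood at 15.8 ± 2.61 against 20.2 ± 5.05 CPM (adjusted p = 0.11), and passed without AF 4 (adjusted p = 0.0444). For Ctsa, the protective protein that stabilizes β-galactosidase and neuraminidase, the means were 142 ± 13.7 and 162 ± 22.7 CPM (adjusted p = 0.166). Tpp1, a tripeptidyl peptidase, was at 124 ± 10.8 and 134 ± 11.8 CPM (adjusted p = 0.337). Ctsh, an aminopeptidase, was the only protease with a lower mean in AF, at 312 ± 31.8 against 276 ± 41.4 CPM (adjusted p = 0.262). The 95% intervals of these log2 fold changes reached from -0.06 to 0.73 for Ctsc and from -0.42 to 0.06 for Ctsh, so that moderate changes remain possible. Within the 38 genes, those of the papain family differed in their estimates, from -0.18 for Ctsh to 0.89 for Ctsl. These differences between genes were not tested.

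**Figure D3:**
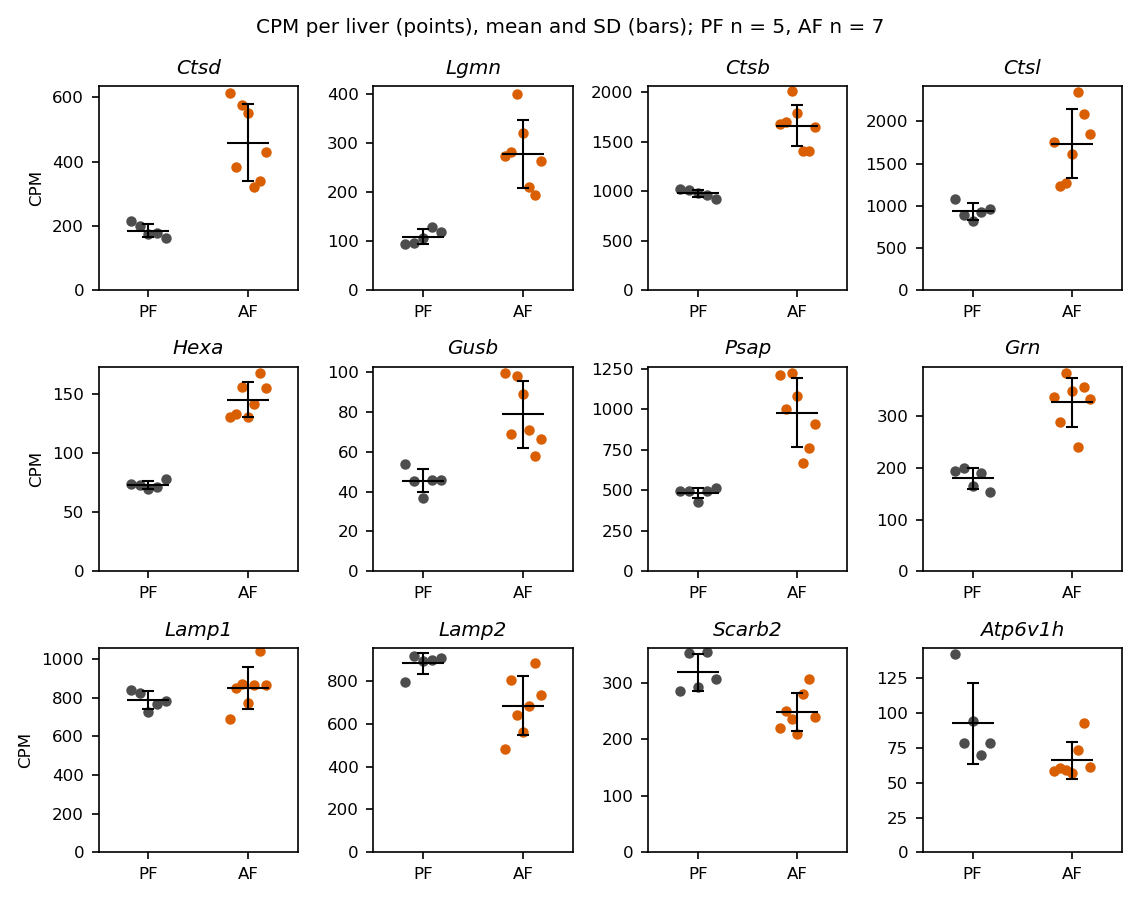
CPM (y axis, from 0) of 12 lysosomal genes in each PF (grey, n = 5) and AF (orange, n = 7) liver, with the mean and SD as black bars. The groups are separate for the 8 luminal genes in the upper rows and overlap for Lamp1, Lamp2, Scarb2 and Atp6v1h.

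Glycosidases strip sugars from glycoproteins, glycolipids and glycosaminoglycans. Of 9 glycosidases, 6 were higher, 0 were lower and 3 did not pass, with a median log2 fold change of 0.49. Hexa (chr9:59539540-59565109, plus strand), the α subunit of β-hexosaminidase that acts on GM2 ganglioside, gave the smallest adjusted p of the 38 genes. Its level was 74.1, 72.8, 69.5, 71.3 and 78.3 CPM in PF and 131 to 168 CPM (median 142) in AF. The spread within each group was small beside the gap between them (1.98-fold, log2 fold change 0.99 ± 0.0879 SE, adjusted p = 7.5e-06). Gusb, β-glucuronidase, was at 53.8, 45.4, 36.9, 46.0 and 45.6 CPM in PF and at 57.8 to 99.3 CPM (median 70.9) in AF. The lowest AF liver, AF 6, came close to the highest PF liver without reaching it (log2 fold change 0.79 ± 0.148 SE, adjusted p = 0.0015).

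Idua, α-L-iduronidase, ranked 37 of the 38 genes per exon length in PF and still separated the groups. PF livers held 6.5, 6.04, 4.21, 4.29 and 5.75 CPM, and AF livers 7.67 to 12.5 CPM with a median of 9.39 (log2 fold change 0.89 ± 0.155 SE, adjusted p = 9.45e-04). Idua lies opposite to the sulfate transporter gene Slc26a1, which fell from a mean of 226 to 142 CPM (log2 fold change -0.67, adjusted p = 0.00266), and its reads could be mixed with those of this neighbour, which has far more reads. Glb1, β-galactosidase, rose from 18.6 ± 1.07 to 26.4 ± 3.65 CPM (adjusted p = 0.00201), and Man2b1, lysosomal α-mannosidase, from 112 ± 8.75 to 156 ± 20.4 CPM (adjusted p = 0.00317). No AF liver overlapped the PF livers in either gene. Gla, α-galactosidase A, rose from 10.2 ± 1.27 to 14.3 ± 2.98 CPM (adjusted p = 0.0214). Here AF livers 1 to 4 had 16.2 to 17.6 CPM, and AF 5, AF 6 and AF 7 had 11.2, 10.5 and 11.9 CPM, which lay within the PF range of 8.78 to 12.2 CPM. The call for Gla was lost without PF 2 (adjusted p = 0.0588) or PF 3 (adjusted p = 0.0508).

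The glycosidases with no passing difference were Manba, Naglu and Neu1. Manba, β-mannosidase, had 33.1 ± 1.84 CPM in PF and 30.7 ± 4.52 in AF (adjusted p = 0.438). Naglu, which acts on heparan sulfate, had 14.2 ± 1.45 and 15.3 ± 2.06 CPM (adjusted p = 0.461), and the sialidase Neu1 had 23.9 ± 3.73 and 28.6 ± 4.57 CPM (adjusted p = 0.119). Neu1 passed as higher without PF 1 (log2 fold change 0.35, adjusted p = 0.0441) and in limma-voom with sample quality weights (adjusted p = 0.0183), and Naglu as lower with the GC and length offset (adjusted p = 0.0476). Of the sulfatases, Sgsh was higher and Ids did not pass. Sgsh, heparan sulfamidase, had 6.05, 4.62, 7.25, 6.61 and 6.2 CPM in PF and 6.81 to 10.9 CPM (median 9.95) in AF, with 6 of 7 AF livers above every PF liver (log2 fold change 0.65 ± 0.14 SE, adjusted p = 0.00339). Ids, iduronate sulfatase, had 11.4, 20.8, 20.6, 18.5 and 18.4 CPM in PF and 11.6 to 19.1 CPM (median 12.9) in AF. PF 1 was as low as the AF livers, and the difference did not pass with it (log2 fold change -0.35 ± 0.161 SE, adjusted p = 0.0981) but did without it (log2 fold change -0.48, adjusted p = 0.0166) or without AF 5 (adjusted p = 0.0357). In PF 1, the summed level of 12 neutrophil markers was 1220 CPM, compared with 67.2 to 262 CPM in the other PF livers, and its part in the value of Ids was not tested.

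Among the 6 lipid hydrolases and luminal lipid proteins, 3 were higher and 0 lower, with a median log2 fold change of 0.41. Psap (chr10:60277627-60302597, plus strand) codes for prosaposin, the precursor of the saposins that present sphingolipids to their hydrolases. Psap was at 493, 495, 426, 494 and 511 CPM in PF and at 669 to 1220 CPM (median 1000) in AF. Every AF liver exceeded the PF livers, and AF 5 and AF 6 were the lowest of them (2.02-fold, log2 fold change 1.02 ± 0.165 SE, adjusted p = 6.19e-04). Grn codes for progranulin, a secreted and lysosomal glycoprotein that binds prosaposin. Grn stood at 194, 200, 165, 189 and 153 CPM in PF and at 240 to 383 CPM (median 337) in AF, without overlap (log2 fold change 0.86 ± 0.127 SE, adjusted p = 3.38e-04). Ppt1, palmitoyl-protein thioesterase, held 65.5, 53.0, 54.4, 54.0 and 66.3 CPM in PF and 75.1 to 99.4 CPM (median 79.3) in AF, also without overlap (log2 fold change 0.52 ± 0.0979 SE, adjusted p = 0.00144). Ppt1 overlaps Cap1 on the opposite strand, which was higher as well (log2 fold change 0.37, adjusted p = 0.0093).

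The enzymes of cholesterol ester and sphingomyelin breakdown did not pass in the test used throughout. Lipa, lysosomal acid lipase, was at 387 ± 28.1 CPM in PF and 438 ± 83.7 CPM in AF (log2 fold change 0.18, 95% interval -0.09 to 0.45, adjusted p = 0.32). Smpd1, acid sphingomyelinase, was at 39.5 ± 2.88 and 36.7 ± 5.47 CPM (log2 fold change -0.10, 95% interval -0.31 to 0.10, adjusted p = 0.437), and was lower with the GC and length offset (log2 fold change -0.31, adjusted p = 0.0162). NPC2 and NPC1 hand cholesterol from the lumen to the membrane in turn. Npc2 was at 100 ± 5.95 and 122 ± 21.8 CPM with 5 of 7 AF livers above the PF range (log2 fold change 0.29, adjusted p = 0.0745), and it passed when AF 5 or AF 6 was left out (adjusted p = 0.0316 and 0.0222). Npc1 was at 142 ± 26.3 and 148 ± 25.8 CPM (log2 fold change 0.05, adjusted p = 0.79), and without PF 3 or AF 1 its estimate changed sign to -0.03 and -0.02.

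The 6 membrane proteins gave calls in both directions. Cln3 was higher, Scarb2 was lower and 4 did not pass, with a median log2 fold change of -0.08. Scarb2 (chr5:92441314-92506833, minus strand) codes for LIMP2, the receptor that carries glucocerebrosidase to lysosomes. It was at 286, 353, 292, 354 and 306 CPM in PF and at 209 to 306 CPM (median 239) in AF. AF 6 lay within the PF range, and the other 6 AF livers lay below the lowest PF liver (0.781-fold, log2 fold change -0.36 ± 0.115 SE, adjusted p = 0.026). This call was lost without PF 2, PF 4, AF 3 or AF 4 (adjusted p between 0.0502 and 0.0694), and with library totals the estimate was -0.01. Lamp2, a major glycoprotein of the lysosomal membrane with a role in autophagy, was at 793, 915, 892, 894 and 907 CPM in PF and at 483 to 883 CPM (median 684) in AF. PF 1 was the lowest PF liver and 5 of 7 AF livers were below it (log2 fold change -0.36 ± 0.15 SE, adjusted p = 0.0672). The difference in Lamp2 passed the threshold in DESeq2 (adjusted p = 0.0213), in limma-voom with sample quality weights (adjusted p = 0.00506) and in edgeR with the replicate block (log2 fold change -0.49, adjusted p = 0.0202), without AF 2 (adjusted p = 0.0477) or without AF 6 (adjusted p = 0.0221).

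Lamp1, the other major membrane glycoprotein, was at 838, 824, 724, 769 and 782 CPM in PF and at 689 to 1040 CPM (median 866) in AF. The AF livers lay on both sides of the PF range, with AF 1 lowest and AF 6 highest (log2 fold change 0.11, 95% interval -0.12 to 0.35, adjusted p = 0.477). Mcoln1, the calcium channel TRPML1, was at 27.5 ± 5.62 and 23.8 ± 4.89 CPM (log2 fold change -0.21, adjusted p = 0.29). Cln3, a membrane protein whose loss causes a form of Batten disease, was at 8.91, 10.7, 7.67, 8.73 and 8.46 CPM in PF and at 9.95 to 17.2 CPM (median 13.9) in AF, with 5 of 7 AF livers above the PF range (log2 fold change 0.59 ± 0.145 SE, adjusted p = 0.00648). Cln3 overlaps Apobr on the opposite strand, which was higher too (log2 fold change 1.15, adjusted p = 8.23e-04).

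The 3 pump subunits gave 0 higher and 1 lower. Atp6v1h, the regulatory H subunit of the cytosolic V1 part, was at 142, 78.5, 93.8, 69.7 and 78.7 CPM in PF and at 56.8 to 93.0 CPM (median 60.4) in AF. PF 1 was far above the other PF livers, and AF 5 and AF 6 lay within the PF range (log2 fold change -0.48 ± 0.178 SE, adjusted p = 0.044). Without PF 1 the estimate was -0.28 (adjusted p = 0.139), and the call was also lost without PF 3, AF 1, AF 2, AF 3, AF 4 or AF 7 (adjusted p between 0.0601 and 0.0797) and with an offset for GC content and length (adjusted p = 0.34). The decrease in Atp6v1h thus rested in good part on PF 1, the library with the high neutrophil markers, whose part in it was not tested. Atp6v1a, the catalytic subunit of V1, was at 81.8 ± 5.52 and 89.8 ± 6.61 CPM (log2 fold change 0.13, adjusted p = 0.182), and Atp6v0d1 of the membrane part was at 78.2 ± 7.04 and 75.1 ± 12.2 CPM (log2 fold change -0.06, adjusted p = 0.696).

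To set enzymes against membrane within the same liver, where scaling factors cancel, the summed CPM of the 27 luminal genes was divided by that of the 9 membrane and pump genes. This ratio was chosen after the values had been seen, covers these listed genes only and is given without a test. It was 2.11, 1.92, 1.99, 1.98 and 1.99 in PF livers and 2.76 to 4.36 (median 3.47) in AF livers. The PF livers were nearly alike, and all AF livers were above them, AF 6 the least and AF 1 the most. The sums are dominated by Ctsb, Ctsl, Psap, Lamp1 and Lamp2, which have the most reads. Between the pair of LAMP glycoproteins, Lamp1 over Lamp2 was 0.812 to 1.06 in PF and 1.06 to 1.43 in AF, where PF 1 and AF 2 met.

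**Figure D4:**
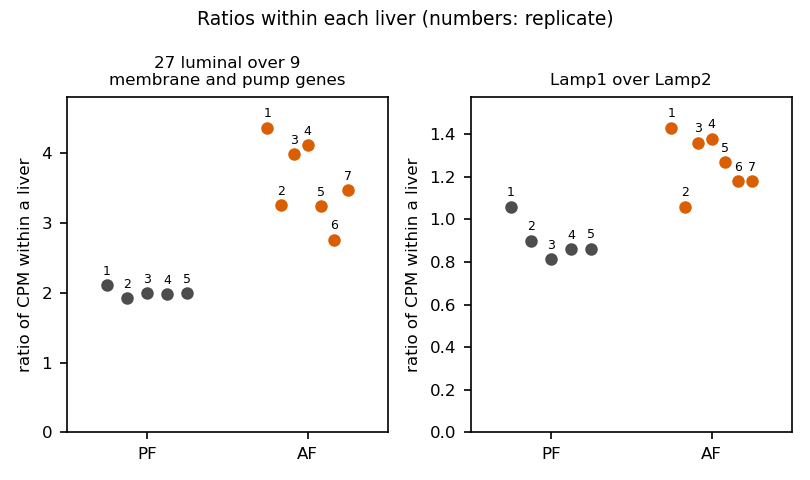
Ratios of CPM within each liver (y axis, from 0) in PF (grey) and AF (orange), numbered by replicate, for the sum of 27 luminal over 9 membrane and pump genes and for Lamp1 over Lamp2. PF livers lie between 1.92 and 2.11 in the first panel and AF livers between 2.76 and 4.36, while the groups meet at 1.06 in the other panel.

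Per exon length, which allows levels to be compared between genes, Lamp1 led in PF livers at 294 CPM per kb, followed by Psap at 176, Ctsb at 162, Ctsl at 144 and Ctsz at 112. In AF livers Psap led at 357 CPM per kb, with Lamp1 at 318, Ctsb at 275, Ctsl at 267 and Ctsd at 195. Lgmn went from rank 12 to rank 7 and Hexa from rank 15 to rank 9, while Lamp2 went from rank 6 to rank 10 and Ctsh from rank 8 to rank 12. Close neighbours in this order, such as Ctsb and Ctsl in AF, were not separated by more than their spread over livers. Lengths are those of all annotated exons of a gene, which can exceed those of the transcripts in use.

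**Figure D5:**
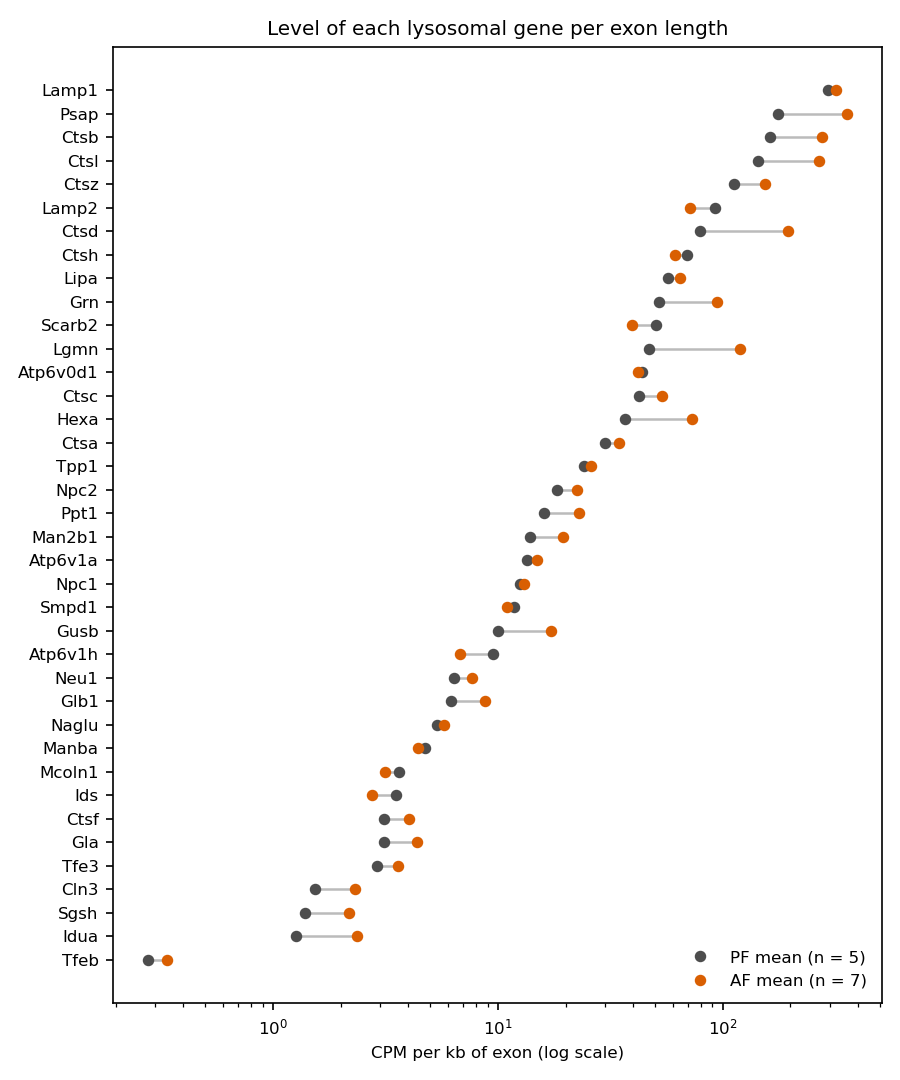
Mean level per kb of exon (x axis, log scale) of the 38 genes (y axis, ordered by PF level) in PF (grey, n = 5) and AF (orange, n = 7), joined by a line for each gene. Levels run from 0.279 CPM per kb for Tfeb to 294 for Lamp1 in PF, and the longest lines to the right belong to Lgmn, Ctsd, Psap and Hexa.

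TFEB and TFE3 are bHLH transcription factors that enter the nucleus when mTORC1 is inactive, so that their activity is set largely by their location and not by their mRNA. Tfeb had the lowest level per exon length of the 38 genes and stood at 2.17, 2.01, 1.46, 1.22 and 1.04 CPM in PF and 1.54 to 2.38 CPM (median 1.97) in AF. The groups overlapped (log2 fold change 0.29, 95% interval -0.13 to 0.70, adjusted p = 0.293). Tfe3 was at 30.5, 27.0, 23.1, 26.9 and 26.4 CPM in PF and 24.5 to 37.3 CPM (median 33.7) in AF. All AF livers except AF 5 were above the PF livers (log2 fold change 0.31 ± 0.105 SE, adjusted p = 0.0317). This call was lost in 7 of the 12 fits without 1 library (PF 2, PF 3, PF 4, PF 5, AF 1, AF 2 or AF 4, adjusted p between 0.0559 and 0.0882), with the replicate block (adjusted p = 0.0591) and with the GC and length offset (adjusted p = 0.208).

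Promoter matches were found among genes with and without a passing change. TCACGTGA was held by 3 of the 16 higher genes with a window (18.8%), namely Ctsd, Cln3 and Gla, and by 4 of the 17 that did not pass (23.5%), namely Ctsa, Mcoln1, Atp6v0d1 and Atp6v1a. CACGTG was held by 7 of the 16 (43.8%) and 7 of the 17 (41.2%). Genes with these 8 letters in their windows ranged in log2 fold change from 1.31 for Ctsd to -0.21 for Mcoln1. Lgmn, Hexa and Psap, with some of the largest changes, hold no TCACGTGA in these windows.

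AF livers differed more among themselves than PF livers. The median coefficient of variation of the 38 genes was 10.3% in PF and 16.1% in AF, and 31 of the 38 were more variable in AF. Over all genes tested the medians were 15% and 21%, and 70.9% were more variable in AF. Among the 17 higher genes, AF 3 had the highest AF value for 7 (Ctsb, Lgmn, Glb1, Idua, Man2b1, Psap and Grn) and AF 1 for 4 (Ctsd, Gla, Gusb and Tfe3). AF 6 had the lowest AF value for 7 (Lgmn, Gla, Glb1, Gusb, Idua, Man2b1 and Sgsh) and AF 5 for 6 (Ctsb, Ctsd, Psap, Grn, Cln3 and Tfe3). The genes did not all rank the livers in the same way, since AF 5 was the highest for Ctsl and Ppt1 and AF 6 for Ctsz and Hexa. Over all 38 genes, AF 6 had both the most highest values (13) and the most lowest values (10) among AF livers.

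Marker genes of several cell types differed as well, beside 22.0% of all genes tested that were higher and 17.8% that were lower. Hepatocyte markers were abundant in every library, with Alb at a mean of 89800 CPM in PF and 59200 CPM in AF, as the liver label requires. The summed level of 12 hepatocyte markers was 123000 to 171000 CPM in PF and 64900 to 133000 in AF, with 0 higher and 3 lower. For Kupffer cells, 9 of 12 markers were higher (75.0%) and 0 lower, and the sum of the 12 was 940 to 1320 CPM in PF and 1410 to 3740 in AF. The 3 that did not pass were Timd4 (log2 fold change -0.01), Cd163 (-0.11) and Folr2 (0.44). For Timd4 and for Cd163, 2 AF livers lay above the PF range and 2 below it. The lowest was AF 1, at 4.23 and 3.21 CPM, against PF minima of 21.6 and 31.3 CPM. For recruited macrophages, 6 of 10 were higher and 0 lower, with sums of 23.9 to 121 and 90.5 to 614 CPM. For stellate cells and fibroblasts, 8 of 10 were higher (80.0%), with sums of 201 to 512 and 431 to 1180 CPM. Bile duct markers were higher for 4 of 6 tested and sinusoidal endothelium for 1 of 8. None of the 12 neutrophil or 4 tested B cell markers passed in either direction, while 1 of 7 T cell and 1 of 5 red blood cell markers were lower. That red blood cell marker was Alas2 (log2 fold change -1.7). The other 4, all globin genes, had positive estimates from 0.81 to 1.02 that did not pass. Among the 17 higher genes, AF 3 was most often the highest AF liver and had the highest Kupffer cell sum. AF 6 was most often the lowest and had the lowest sum of recruited macrophage markers among AF livers. Its Kupffer cell sum was 1760 CPM, as in AF 5. AF 1, however, had the lowest Kupffer cell sum, 1410 CPM, and the highest recruited macrophage sum of the AF livers. Single genes weigh heavily in these sums. Mmp12 gave 408 of the 614 CPM for recruited macrophages in AF 1, and Cd5l 1220 of the 3740 CPM for Kupffer cells in AF 3. Macrophages express lysosomal enzymes strongly, and the part of these cell types in the differences was not tested.

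Other lysosomal genes were examined as a wider list of 106, of which 100 could be tested. Of these, 35 were higher (35.0%) and 7 lower (7.0%), with a median log2 fold change of 0.20, against 22.0% higher, 17.8% lower and a median of 0.04 over all genes tested. Among 32 further hydrolases, 12 were higher (37.5%) and 2 lower (6.25%). Ctsk, a cathepsin known from osteoclasts, had a log2 fold change of 2.38 (adjusted p = 8.85e-04), macrophage lysozyme Lyz2 one of 1.59 (adjusted p = 0.00369) and the nuclease Pld3 one of 1.36 (adjusted p = 8.12e-05). Ctso (log2 fold change -0.36) and the carboxypeptidase Scpep1 (-0.31) were lower, and Ctso lost its call without PF 3 (adjusted p = 0.0632) or AF 4 (adjusted p = 0.0511) and with the GC and length offset (adjusted p = 0.129).

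Of 21 further membrane proteins tested, 9 were higher (42.9%) and 2 lower (9.52%). Gpnmb, a glycoprotein known from lipid-laden macrophages, was at 0.246, 0.32, 0.167, 0.275 and 2.22 CPM in PF and at 6.14 to 363 CPM (median 114) in AF, the largest change of the list (log2 fold change 7.76 ± 1.14 SE, adjusted p = 3.25e-04). PF 5 held most of the PF reads of Gpnmb, and without it the log2 fold change was 9.08. The tetraspanin Cd63 rose from 5.71 ± 2.92 to 85.8 ± 42.2 CPM (log2 fold change 3.92, adjusted p = 5.61e-05), and the macrophage sialomucin Cd68 from 17.1 ± 3.63 to 56.7 ± 21.4 CPM (log2 fold change 1.73, adjusted p = 4.31e-04). The transporters Abca2 and Slc17a5, which exports sialic acid, fell by 0.58 and 0.39 on the log2 scale.

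Of 17 pump subunits tested beyond the 3 described, 5 were higher (29.4%) and 1 lower (5.88%), against 22.0% and 17.8% of all genes. Atp6v0e2 (log2 fold change 1.79, adjusted p = 0.00476), the d2 isoform Atp6v0d2 (1.6, adjusted p = 0.0224) and Atp6v0e (0.85, adjusted p = 7.78e-06) were higher, and Atp6v1g1 (-0.48, adjusted p = 0.00319) was lower, a call lost with the GC and length offset (-0.24, adjusted p = 0.203) and with library totals (-0.09, adjusted p = 0.663). Atp6v0d2, known from macrophages and osteoclasts, rose from 5.77 ± 2.32 to 17.5 ± 11.8 CPM, while its widely expressed counterpart Atp6v0d1 was listed above with -0.06. The Atp6v0d2 call was lost without PF 3, PF 4 or PF 5 (adjusted p between 0.0533 and 0.0566) and in limma-voom (adjusted p = 0.116).

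In the mannose 6-phosphate route that sorts hydrolases to lysosomes, 4 of 13 genes were higher (30.8%, against 22.0% of all genes) and 0 lower, among them the receptor Igf2r (56.5 ± 6.66 to 83.9 ± 16.8 CPM, log2 fold change 0.57, adjusted p = 0.0065) and the adaptors Gga3 (0.54) and Gga2 (0.50, lost with the GC and length offset at adjusted p = 0.0533). Among 17 tested genes of the TFEB family and its mTORC1 regulators, 5 were higher (29.4%) and 2 lower (11.8%). Rragd, a GTPase that links lysosomal nutrient state to mTORC1 and is itself a TFEB target, was at 4.28, 2.01, 2.75, 4.88 and 5.11 CPM in PF and at 11.8 to 33.3 CPM (median 23.5) in AF. The groups were far apart (log2 fold change 2.61 ± 0.307 SE, adjusted p = 6.76e-05). The TFEB relatives Mitf (0.58, adjusted p = 0.0328) and Tfec (0.53, adjusted p = 0.0377) were higher but lost their calls in 7 and 8 of the 12 fits without 1 library, respectively, with adjusted p up to 0.0796 for Mitf and 0.088 for Tfec. The calcineurin subunit gene Ppp3cb (-0.29, adjusted p = 0.0196) and Rraga (-0.24, adjusted p = 0.0338) were lower. Ppp3cb lost its call with the replicate block (adjusted p = 0.0533), with genes of at least 1 count in any library (0.0567) and with the GC and length offset (0.26). Rraga lost its call in 8 of the 12 fits without 1 library, with adjusted p up to 0.0789, and with that offset (0.232).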

How the data were processed

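Liver mRNA of 5 PF and 7 AF mice was sequenced from poly-A enriched, stranded libraries. The authors deposited raw counts of reads per Ensembl gene, without normalization. The submitters' processing notes name FastQC 0.10.1, TopHat2 2.0.13, HTSeq 0.10.0 and the build GRCm38. The annotation and strand setting of the counting are not given in the sources used here, which leaves overlapping genes uncertain. Gene symbols were taken from GENCODE M21 for 54165 of 54232 IDs. The paper's Cuffdiff2 comparison of FPKM was not repeated, since counts were deposited.

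Counts were filtered with filterByExpr (14168 genes left), scaled with TMM and tested with edgeR 4.0.16 (quasi-likelihood, AF against PF, no covariates) in R 4.3.3, with Benjamini-Hochberg adjustment over all genes and a threshold of 0.05. A higher or lower gene is one past this threshold. CPM values are means ± SD over mice, and SE belongs to the log2 fold change. An exact two-sided permutation test of mean log2(CPM + 0.1) ran over all 792 splits. Steps were tested on simulated data. In 31 comparisons within groups, no pair of libraries agreed within sampling noise. At this depth, counting error is small beside the spread between mice for genes above a few CPM, and reads without molecular identifiers are not independent molecules.

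The members and lists were chosen with earlier results of these data known. All 38 genes are named. From each wider list, up to 3 genes per direction with the largest passing change and a mean log2 CPM of at least 1 are named. Alternatives were DESeq2 1.42.0, limma-voom (limma 3.58.1) with and without sample quality weights, RLE, upper-quartile and library-total scaling, filters at 1 count in any library and a mean of 10 counts, the replicate number as a block, and each library left out. The offset for GC content and length (mgcv 1.9.3) and the ratios within livers were added after the data had been seen. Promoter windows are from RefSeq on GRCm38.p6, the build of the counts, and are credited as such.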

Additional observations from a re-analysis of the deposited data

Results flagged for a closer look

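Of 76 sets of values (38 genes in PF and in AF), 5 held a liver set apart from the rest of its group by Dixon's criterion, where chance gives 3.8. Tpp1 was at 158 CPM in AF 6, above 123 to 137 CPM in the other AF livers. Tfe3 was at 24.5 CPM in AF 5, below 32.4 to 37.3 CPM in the others. In PF 1, Ids was at 11.4 CPM against 18.4 to 20.8 CPM and Lamp2 at 793 CPM against 892 to 915 CPM in the other PF livers. Psap was at 426 CPM in PF 3 and at 493 to 511 CPM in the others.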

How the results depend on the processing

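Of the 17 higher genes, 14 were higher under all 22 alternatives, with Ctsz, Gla and Tfe3 as exceptions, and neither lower gene was lower under all of them. With library totals without scaling factors, 30 of the 38 genes were higher and 0 lower, as were 66 and 0 of the wider list and 6458 and 938 of all genes. The 38 genes included 1 lower gene with limma-voom and with upper-quartile normalization, 4 with limma-voom and sample quality weights, 0 with genes of at least 1 count in any library, and 0 to 3 when a library was left out, 0 without AF 3 or AF 4. The wider list included 13 lower genes with limma-voom and sample quality weights, 4 with at least 1 count in any library, and 5 to 11 when a library was left out, 11 without AF 6.

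Estimates changed sign with library totals, where all genes shifted upward, for Ctsh (0.17), Manba (0.28), Ids (0.03), Smpd1 (0.24), Mcoln1 (0.13), Atp6v0d1 (0.28), Scpep1 (0.05), Ppp3cb (0.08) and Rraga (0.11). Under the GC and length offset, Ctsa was at 0.00, Naglu at -0.21 and Tfeb at -0.18, the median of the 38 genes was 0.19 and 16 were higher and 3 lower. The cause was not tested. Npc1 ranged from -0.03 to 0.13 over the fits without 1 library. Further calls absent from the reported test were Ctsc (adjusted p = 0.0443), Ids (0.013), Npc2 (0.00489) and Tfeb (0.0419) with limma-voom and sample quality weights, Npc2 with upper-quartile scaling (0.0457), Mcoln1 with the replicate block (0.0429, lower) and Atp6v1a with the GC and length offset (0.0315). Further calls lost were Scarb2 with at least 1 count in any library (0.0683), Scpep1 (0.0501), Tfec (0.052) and Rraga (0.1) with that filter, Rraga with upper-quartile scaling (0.0607), Atp6v1h with the same filter (0.0601), limma-voom (0.0532) and upper-quartile scaling (0.0593), and in limma-voom Mitf (0.0569) and Tfec (0.0705).

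Replicate numbers 1 to 5 appear in both groups, but nothing in the labels says that they pair mice. Deviations of livers with the same number correlated between -0.076 and 0.115, and 1 of 5 numbers matched best with itself, so the numbers were not taken as pairs. With the replicate block, 15 of the 38 genes were higher and 4 lower, and 3395 and 2940 of all genes. Few reads lie behind the values of low genes such as Tfeb, which had 177 reads in all PF livers together. The part of depth in its spread was not tested.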
